A study of Rattus norvegicus with 6 samples.

Results

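Translation initiation and elongation factors were followed through the 6 PAIII tumors of the series, as the rows of the gene table whose symbol starts with Eif or Eef followed by a digit. The rule found 63 symbols among 17030, 55 of them starting with Eif and 8 with Eef. Each of the 63 was on a single row. The 4 rows Eif2c1 to Eif2c4 carry older symbols of the Argonaute genes Ago1 to Ago4, which act in RNA silencing and are not initiation factors, so 59 rows are translation factors or their direct regulators. Eif3s6ip is the older symbol of Eif3l and Eif2s3x that of Eif2s3. Eif4g1 was not analysed here.

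The PAIII tumor, a prostate cancer of the rat, was kept by serial passage through Lobund-Wistar rats, and the host rats had intact immune systems. Cells were injected under the skin of the right flank of Lobund-Wistar rats aged 2 months. The digitoxin group (rats A1, A6 and A12, labelled replicates 1, 2 and 3) received 0.03 mg/kg of digitoxin in the peritoneum each day from day 10. Rats B5, B9 and B14 (replicates 1, 2 and 3) were the vehicle group, and tumors of both groups were taken on day 40. RNA came from 10 punches of 1 mm diameter, cut from 300 micron sections of the viable parts of each tumor, and 1 library was sequenced per rat, so n = 3 per group. The rats were picked for sequencing from the extremes of serum IL-6 and CINC-1, low in the digitoxin group and high in the vehicle group, which limits them as a sample of either group. Digitoxin is a cardiac glycoside, a plant steroid that inhibits the sodium and potassium pump.

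The deposited unit is FPKM, the sequenced fragments of an mRNA divided by its length and by the size of the library, which sets mRNAs on a scale per length. Library sums of FPKM ran from 651322 (B14) to 1025231 (A6), and the number of reads behind a value is unknown. The labels name the human build hg19, but the rows do not lie on it, since starts on chromosome 1 reach 290029538 and no row is on a chromosome 21 or 22, so positions are given as the table has them and their build is not given in the sources used here. Lung mRNAs were found in 4 of the 6 libraries. The 11 measured lung alveolar markers summed to 51955, 85656 and 42.2 FPKM in A1, A6 and A12 and to 28132, 36313 and 64.4 FPKM in B5, B9 and B14, and Sftpa1, Sftpb and Lamp3 were listed at 0 in both A12 and B14. All 5 measured epithelial markers were above 1 FPKM in every tumor, while 5 of 7 prostate lineage markers were below 1 FPKM in every tumor. The other 2 were Tmprss2, at 7.69 to 34.1 FPKM, and Fkbp5, at 23.3 to 67.3 FPKM, so most of the prostate markers were absent or near 0. Because A12 and B14 stood apart, results are given with and without them.

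Initiation factors bring the initiator tRNA and the small ribosomal subunit to the capped end of an mRNA and find its start codon. Elongation factors then deliver each aminoacyl tRNA and move the ribosome along. The pathway is tuned mainly at 2 steps: eIF4E, which binds the cap, is held by 4E-binding proteins until mTORC1 phosphorylates them, and eIF2, which carries the initiator tRNA, is blocked when 1 of 4 kinases phosphorylates its alpha subunit. Many mRNAs of ribosomal proteins and elongation factors start with a run of pyrimidines, the 5′ terminal oligopyrimidine (5′ TOP) motif, through which mTORC1 controls their translation. The level of an mRNA does not show phosphorylation or translation. In bulk tumor RNA, fewer cells of a type and less RNA per cell cannot be told apart.

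Pyrimidine runs of 4 members known as 5′ TOP mRNAs are shown because members with such a run near the start differed in their pattern over the tumors. The windows hold the 18 bases before and the 12 bases from the RefSeq transcript start in build GRCr8, 5′ to 3′ on the strand of the gene, with the longest unbroken run of C and T in capitals. Eef1a1 lies at chr8:88225058-88225087 on the minus strand, Eef1g at chr1:215289797-215289826, Eef1b2 at chr9:72074073-72074102 and Eif3f at chr1:172369044-172369073, the last 3 on the plus strand.
Eef1a1: tagtcgccttggacgTTCTTTTTCgcaacg
Eef1g: CCCTTTCTCTgcggaatcaccatggcggct
Eef1b2: acttttccggccggtcccggCCCTTTTTCT
Eif3f: aactcacgcccttccgttctagCCTCTCTC
Within the window the run holds 9 bases in Eef1a1, 10 in Eef1g, 10 in Eef1b2 and 8 in Eif3f. The window cuts the last 3, whose whole runs are of 12, 15 and 14 bases in the RefSeq promoter sequence. It spans the RefSeq start in Eef1a1, lies ahead of it in Eef1g, and follows it in Eef1b2 and Eif3f. A run of at least 6 pyrimidines was found in this window in 20 of the 56 members with a RefSeq promoter (35.7%). It was found in 29.1% of all 33469 promoters and in 26.7% of the 7960 tested rows with a promoter under the same symbol. The start used was the outer end of the RefSeq gene for only 27 of the 56 members, and where the mRNAs start in these tumors was not tested. A run in this window is therefore not evidence of a 5′ TOP motif. Eef1a1 and Eef1g were highest in A12 and B14, whereas Eef1b2 and Eif3f were not, as their values below show.

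A further pair of windows is shown for Eif4e, the cap-binding protein, since they hold CACGTG, the E-box letters bound by MYC and related factors. CACGTG is in capitals in both, and reads the same on both strands. The first lies at chr2:229740504-229740533 and the second at chr2:229740661-229740690, on the plus strand of GRCr8, and they start 237 and 80 bases ahead of the transcript start, counted to the first capital.
Eif4e, first window: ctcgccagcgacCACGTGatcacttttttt
Eif4e, second window: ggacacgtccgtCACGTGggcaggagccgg
In the 300 bases around the start (250 before and 50 from it), 10 of 56 members held CACGTG (17.9%). This compares with 6.42% of all promoters and 9.26% of the 7960 tested rows with a promoter under the same symbol. The 10 were Eef2, Eef2k, Eif1b, Eif3a, Eif3b, Eif3f, Eif4e, Eif4h, Eif5a and Eif5a2, and Eif5a2 and Eif4e held it more than once. Of the members that were higher in both A12 and B14 than in the other 4 tumors, described below, 8 of 26 with a promoter held it, and of the other members tested 2 of 27. Among all tested rows with a promoter under the same symbol, the shares were 10.4% of 2439 with that pattern and 8.77% of 5521 without it. The split of the members rests on 10 promoters and was not tested. The pyrimidine run was held by 9 of the 26 and 10 of the 27 members, and by 25.7% and 27.2% of all tested rows. A match of letters is not evidence that a factor binds there. Promoters of Eef1d, Eif2c2, Eif3e, Eif3h, Eif4b, Eif4e3 and Eif4ebp1 were not analysed here.

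All 63 members had some signal in every tumor. Their FPKM summed to 8163 in A1, 7097 in A6 and 14253 in A12 with digitoxin. With vehicle they summed to 10270 in B5, 9438 in B9 and 12786 in B14. This was 1.00%, 0.692% and 2.08% of all FPKM in the digitoxin-treated tumors and 1.23%, 1.32% and 1.96% in the vehicle tumors. The sums in A12 and B14 were thus the highest, and the groups overlapped. A few abundant mRNAs made up much of each sum, with 6 members (Eef2, Eef1a1, Eif5a, Eef1g, Eef1b2 and Eif4a1) holding from 41.2% of it in A6 to 59.0% in A12. At the other end, 6 members had a mean under 5 FPKM, among them Eif5b, which joins the ribosomal subunits, with 0.744, 0.961 and 1.57 FPKM in A1, A6 and A12 and 0.989, 1.26 and 1.15 FPKM in B5, B9 and B14.

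**Figure D1:**
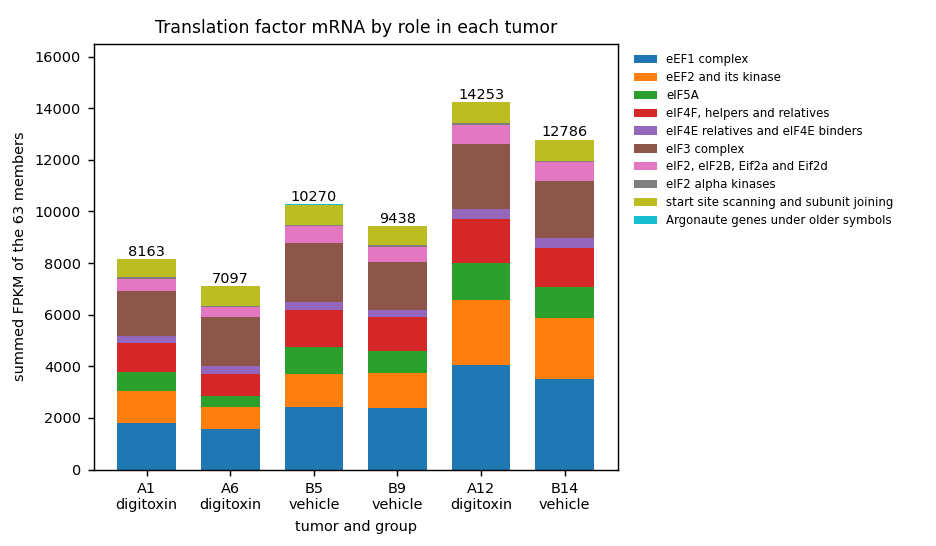
Summed FPKM of the 63 members (y axis) in each of the 6 tumors (x axis, with the group), stacked by role, with the total above each bar. The totals run from 7097 in A6 to 14253 in A12, and A12 (digitoxin) and B14 (vehicle) stand above the other 4 tumors.

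The comparison of digitoxin with vehicle asks whether the drug changed these mRNAs in the tumor. No member passed an adjusted p of 0.05 in limma's test on log2(FPKM + 1), fitted to the 10749 rows that averaged 1 FPKM or more, 60 of them members. Nor did any other row (0% of the 10749). The smallest adjusted p among the members was 0.926. At an unadjusted p under 0.05 there was 1 member, Eif3h (1.67%), and 0.335% of all rows, and its groups did not overlap, which held for 1 of 60 members and 4.16% of all rows. Lower mean log2 levels with digitoxin were found for 49 of 60 members (81.7%) and for 64.9% of all rows. The median log2 fold change, digitoxin minus vehicle, was -0.24 over the members and -0.16 over all rows, a difference of -0.08. Median-of-ratios scaling moved the median of all rows by 0.18 to 0.02 and left 36 of 60 members lower, against 48.5% of all rows, with a difference of medians of -0.07. Equal FPKM sums moved both the other way, to 56 of 60 members lower (93.3%), against 78.6% of all rows, with medians of -0.43 and -0.33.

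These shares moved with single tumors. Lower means were found for 71.7% of the members and 70.8% of all rows without A1, and for 68.3% and 66.3% without A6. Without B14 the shares were 80.0% and 74.8%. Without A6, the members' median log2 fold change was -0.04 and that of all rows -0.08, so the members' median was then above that of all rows. The same held without A1 (-0.20 against -0.23) and without B14 (-0.16 against -0.23). Without A6 the log2 fold change of 51 of the 60 members turned or shrank by more than 1.5 times, and without A12 that of 45 kept its sign and grew by more than 1.5 times. Unadjusted p under 0.05 were found for 16 members (26.7%) without A12, against 19.7% of all rows, and for no member without A6, without B9 or without B14. The 95% confidence interval of the log2 fold change lay within 1 on either side of 0 for 30 of the 60 members, and the median standard error was 0.32 for the members and 0.41 for all rows. For the other 30, a difference of 2-fold is inside the interval. A p that misses the threshold does not show that the groups were alike.

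**Figure D2:**
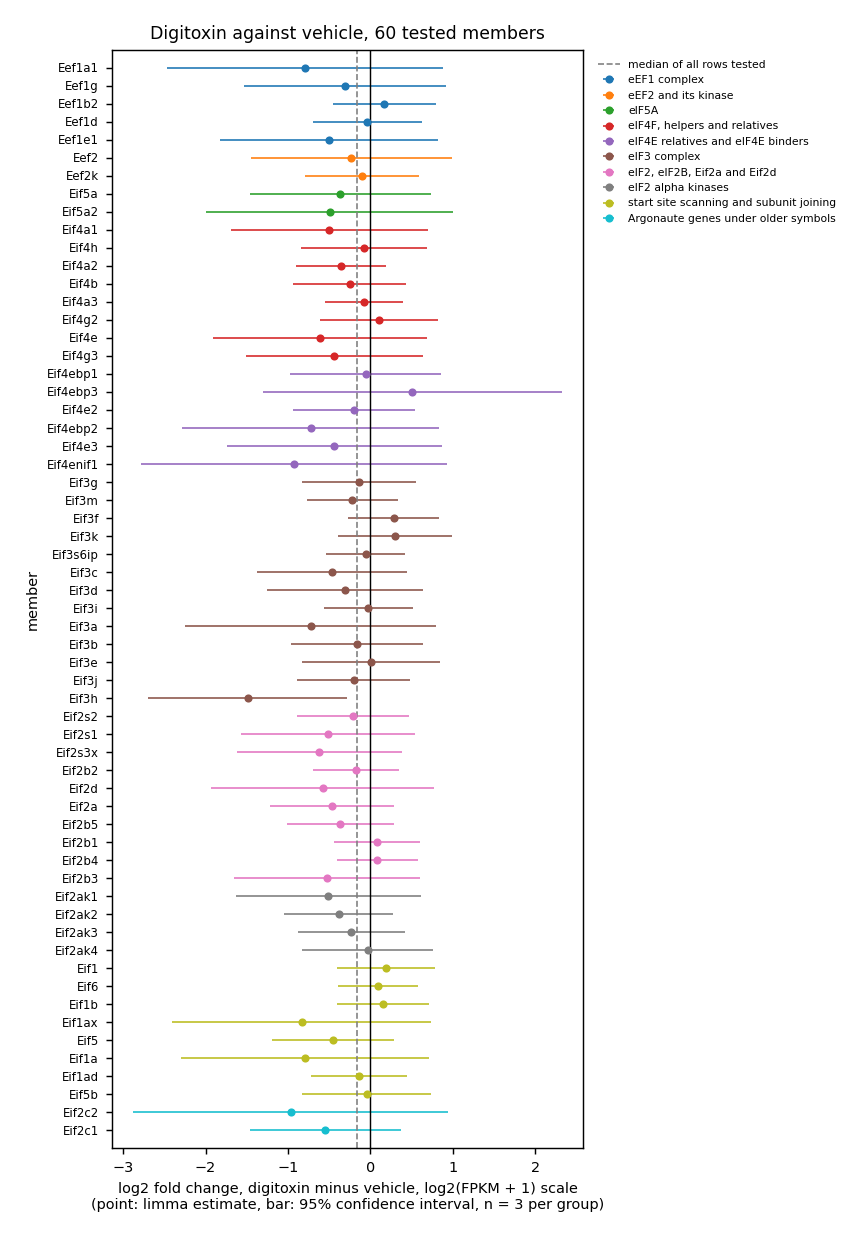
Log2 fold change of digitoxin minus vehicle on the log2(FPKM + 1) scale (x axis) for the 60 tested members (y axis, colored by role), as limma's estimate with its 95% confidence interval, n = 3 tumors per group. The dashed line marks the median of all rows, -0.16, and the interval of Eif3h alone lies on one side of 0.

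Eif3h, a subunit of eIF3, had 10.6, 3.79 and 8.32 FPKM in A1, A6 and A12 and 13.8, 19.4 and 36.9 FPKM in B5, B9 and B14. The highest digitoxin value was below the lowest vehicle value. The log2 fold change was -1.49 ± 0.50 (SE; 95% confidence interval -2.70 to -0.28; limma unadjusted p = 0.023, adjusted p = 0.926). In A1 and A6 against B5 and B9 alone it was -1.22 (limma unadjusted p = 0.056), and A12 minus B14 was -2.02 on the log2 scale. Leaving out A6, B9 or B14 took its unadjusted p above 0.05, with log2 fold changes of -1.12, -1.56 and -1.12.

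The Eif3h row did not lie where RefSeq places the gene. Its position in the table is chr6:20146740-20231690, next to Epas1 at chr6:20299602-20377837. In the table it lies between Prkce and Epas1. RefSeq GRCr8 has these genes in the opposite order on chromosome 6 and places Eif3h-ps1, a pseudogene of Eif3h, between them. The 6 RefSeq neighbours of Eif3h itself that the table holds (Kcnv1, Trps1, Utp23, Rad21, Aard and Slc30a8) are all on chromosome 7 there. Rad21, 1 of these, is at chr7:92155545-92182749. Eif3e showed the same discord, with its row at chr13:105112073-105144806 between Cnih3 and Enah, and its 9 RefSeq neighbours in the table on chromosome 7. Of the other members, 59 had every RefSeq neighbour on their own chromosome, and Eif3i and Eif4h had all but 1. Which copy gave the reads of the Eif3h row was not tested. The build that placed both rows is not given in the sources used here. Without the rows Eif3e and Eif3h, no member had an unadjusted p under 0.05. Reads of many other members are also open to sharing with near-identical copies, since 35 of the 63 have at least 1 RefSeq pseudogene and 123 pseudogenes were found in all, 20 of them of Eef1a1 and 16 of Eef1g.

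Among the elongation factors, no member of either group passed the test. eEF1A, made from Eef1a1, carries aminoacyl tRNAs to the ribosome. Eef1a1 was at 574 FPKM in A1, 251 FPKM in A6 and 1640 FPKM in A12 with digitoxin, and at 803 FPKM in B5, 1017 FPKM in B9 and 1505 FPKM in B14 with vehicle. A12 and B14 were highest and A6 lowest, so that A12 and A6, both treated, stood at opposite ends. Over all 6 tumors the log2 fold change was -0.79 ± 0.69 (SE from limma, as for the fold changes that follow), from -1.49 without A12 to -0.14 without A6. In the 4 tumors with lung mRNAs both digitoxin values were below both vehicle values, with a log2 difference of -1.25 (limma unadjusted p = 0.029, adjusted p = 0.392), while A12 was 0.12 above B14. A gap between the groups in either direction was found in these 4 tumors for 66.7% of the members and 57.2% of all rows. An unadjusted p under 0.05 (limma) was found there for 11.0% of all rows. The p-values of other members in these 4 tumors stand beside the same shares. The row of Eef1a1 is at chr8:85387881-85391104 in the table. Eef1a2, the muscle and neuron form, did not reach a mean of 1 FPKM, with values from 0.118 in A6 to 0.772 in A1.

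The exchange factor eEF1B reloads eEF1A with GTP. Its subunit Eef1g had 548, 408 and 1369 FPKM in A1, A6 and A12 and 732, 676 and 1169 FPKM in B5, B9 and B14, the same order of tumors at the extremes as Eef1a1, and a log2 fold change of -0.31 ± 0.51, which turned to 0.056 without A6. Its subunit Eef1b2 had 572, 836 and 824 FPKM in A1, A6 and A12 and 724, 577 and 661 FPKM in B5, B9 and B14. Eef1b2 was the flattest of the 5 tested eEF1 members, with a highest value 1.46 times the lowest, and it was highest in A6, where Eef1a1 and Eef1g were lowest. Eef1b2 had a log2 fold change of 0.17 ± 0.26, and it turned to -0.012 with libraries scaled to equal FPKM sums. Eef1d (log2 fold change -0.036 ± 0.27) and Eef1e1 (-0.50 ± 0.55), the latter also part of the tRNA synthetase complex, were both highest in A12 and lowest in A6.

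eEF2 moves the ribosome by 1 codon and was the most abundant member. Eef2 was at 1184 FPKM in A1, 800.2 FPKM in A6 and 2493 FPKM in A12 with digitoxin, and at 1250 FPKM in B5, 1319 FPKM in B9 and 2325 FPKM in B14 with vehicle. A12 and B14 held about the same level, well above the other 4, and the groups overlapped fully. Its log2 fold change was -0.23 ± 0.50, and it turned to 0.13 without A6 and to 0.053 without B14. Its kinase Eef2k, which phosphorylates and slows eEF2, had 34.5, 22.6 and 40.9 FPKM in A1, A6 and A12 and 32.6, 30.9 and 39.6 FPKM in B5, B9 and B14. Eef2k had a log2 fold change of -0.10 ± 0.28, which turned to 0.086 under median-of-ratios scaling and to 0.13 without A6. Both mRNAs were higher in A12 and B14 than in any other tumor.

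eIF5A, which carries the unusual amino acid hypusine and helps ribosomes past stretches that stall them, is made from Eif5a. Eif5a was at 754 FPKM in A1, 456 FPKM in A6 and 1434 FPKM in A12 with digitoxin, and at 1072 FPKM in B5, 825 FPKM in B9 and 1187 FPKM in B14 with vehicle. A6 was lowest and A12 highest. For Eif5a the log2 fold change was -0.36 ± 0.45, and it turned to 0.033 without A6. Its low-abundance paralog Eif5a2 had 1.88, 0.478 and 3.68 FPKM in A1, A6 and A12 and 2.15, 1.39 and 6.35 FPKM in B5, B9 and B14, with a log2 fold change of -0.49 ± 0.62.

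The cap-binding complex eIF4F consists of the cap binder eIF4E, the helicase eIF4A and the scaffold eIF4G. Of 8 tested subunits, helpers and relatives grouped here, 7 had a lower mean with digitoxin and none passed the test, and their median log2 fold change was -0.30. Eif4e had 29.998, 13.2 and 58.8 FPKM in A1, A6 and A12 and 37.7, 39.97 and 58.6 FPKM in B5, B9 and B14. A6 was again lowest, while A12 and B14 were nearly equal. The log2 fold change was -0.61 ± 0.54, from -1.12 without A12 to -0.081 without A6. Eif4e has 10 RefSeq pseudogenes. Eif4a1, the main helicase, had 319.7, 171 and 657 FPKM in A1, A6 and A12 and 489.8, 387 and 535 FPKM in B5, B9 and B14 and a log2 fold change of -0.50 ± 0.49, from -0.99 without A12 to -0.025 without A6. In the 4 tumors with lung mRNAs the log2 difference of Eif4a1 was -0.89 (limma unadjusted p = 0.048, adjusted p = 0.392).

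Helpers and relatives grouped with eIF4F were flatter or ran the other way. Eif4h, a helper of the helicase, had 201, 173 and 331 FPKM in A1, A6 and A12 and 218, 206 and 303 FPKM in B5, B9 and B14. Its log2 fold change was -0.079 ± 0.31, and it turned to 0.12 under median-of-ratios scaling, to 0.11 without A6, to 0.091 without B14 and to 0.0047 without A1. Eif4g2, which resembles eIF4G but does not bind eIF4E, had 70.9, 73.4 and 46.1 FPKM in A1, A6 and A12 and 71.3, 63.1 and 43.3 FPKM in B5, B9 and B14. It was lower in A12 and B14 than in the other 4, the reverse of Eif4e, with a log2 fold change of 0.10 ± 0.30 that turned to -0.081 with equal FPKM sums, to -0.11 without B14 and to -0.019 without A6. Eif4a3, the helicase of the exon junction complex, ran from 119.997 FPKM in A1 to 156 FPKM in B5.

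The 4E-binding proteins hold eIF4E away from eIF4G, and their 3 mRNAs followed 3 patterns. Eif4ebp1, the most abundant, had 133, 135 and 258 FPKM in A1, A6 and A12 and 178, 121 and 242 FPKM in B5, B9 and B14. A12 and B14 were about level and above the rest, and the log2 fold change was -0.058 ± 0.38, which turned to 0.14 under median-of-ratios scaling, to 0.18 without B14, to 0.10 without A1 and to 0.094 without A6. Eif4ebp2 had 16.04, 3.83 and 20.5 FPKM in A1, A6 and A12 and 11.4, 22.01 and 26.7 FPKM in B5, B9 and B14. A6 was lowest by a wide margin, and the log2 fold change was -0.72 ± 0.64, from -1.14 without A12 to -0.059 without A6. Eif4ebp3 had 55.3, 104 and 18.99 FPKM in A1, A6 and A12 and 53.9, 47.7 and 14.4 FPKM in B5, B9 and B14. Its order was the reverse, with A6 highest and A12 and B14 lowest, so that A6 had 7.23 times the level of B14. The log2 fold change of Eif4ebp3 was 0.51 ± 0.75, the highest of the members, and it ran from -0.073 without B14 and -0.041 without A6 to 1.16 without A12. Eif4enif1, which binds eIF4E and carries it into the nucleus, had 5.80, 1.04 and 14.9 FPKM in A1, A6 and A12 and 7.01, 11.4 and 14.3 FPKM in B5, B9 and B14 and a log2 fold change of -0.93 ± 0.77. The cap-binding relatives Eif4e2 (log2 fold change -0.19 ± 0.30) and Eif4e3 (-0.44 ± 0.54) were both highest in B14 and lowest in A6.

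eIF3 is the scaffold of the small subunit during initiation and had 13 tested subunits. Lower means with digitoxin were found for 10 and higher means for 3, with a median log2 fold change of -0.16, that of all rows being -0.16 too. The subunits differed in their pattern over the tumors. The largest subunit, Eif3a, had 67.6, 30.1 and 170.3 FPKM in A1, A6 and A12 and 91.5, 106 and 166 FPKM in B5, B9 and B14, a log2 fold change of -0.73 ± 0.63 and, in the 4 tumors with lung mRNAs, a log2 difference of -1.11 (limma unadjusted p = 0.032, adjusted p = 0.392). Eif3k had 205, 367 and 214 FPKM in A1, A6 and A12 and 229.5, 203 and 183 FPKM in B5, B9 and B14, with A6 highest where Eif3a was lowest. Its log2 fold change was 0.30 ± 0.29, the highest of the subunits. Eif3f had 273, 389 and 364 FPKM in A1, A6 and A12 and 301, 243 and 294 FPKM in B5, B9 and B14, its A6 value also the highest.

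The 2 most abundant subunits were Eif3g and Eif3m. Eif3g had 282, 274 and 479.6 FPKM in A1, A6 and A12 and 404, 322 and 377 FPKM in B5, B9 and B14, and its log2 fold change of -0.13 ± 0.29 turned to 0.061 under median-of-ratios scaling and to 0.0061 without A6. Eif3m had 267, 279 and 321 FPKM in A1, A6 and A12 and 419, 293 and 308 FPKM in B5, B9 and B14, with a log2 fold change of -0.22 ± 0.23. In mean level per length 3 subunits were far below the rest, Eif3h at 15.5 FPKM, Eif3j, which joins the complex loosely, at 23.8 FPKM and Eif3e at 29.9 FPKM, while the other 10 had means from 103 FPKM for Eif3b to 356 FPKM for Eif3g. Eif3h and Eif3e are the rows whose neighbours lie on another chromosome.

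eIF2 brings the initiator tRNA to the ribosome and eIF2B reloads it with GTP. Of their 8 tested subunits 6 had a lower and 2 a higher mean with digitoxin, none passed the test, and the median log2 fold change was -0.29. Eif2a (log2 fold change -0.47 ± 0.31) and Eif2d (-0.58 ± 0.56), initiation factors that belong to neither complex, are drawn with them in the figures. The alpha subunit Eif2s1, which the stress kinases phosphorylate, had 77.9, 49.8 and 157 FPKM in A1, A6 and A12 and 119, 102 and 150.1 FPKM in B5, B9 and B14. Its log2 fold change was -0.52 ± 0.44. The beta subunit Eif2s2 had 112, 114 and 188 FPKM in A1, A6 and A12 and 165, 128 and 178 FPKM in B5, B9 and B14, with a log2 fold change of -0.22 ± 0.28. The gamma subunit Eif2s3x had 44.02, 28.1 and 84.03 FPKM in A1, A6 and A12 and 67.004, 65.4 and 87.99 FPKM in B5, B9 and B14, with -0.62 ± 0.41, the lowest of the 8. In the 4 tumors with lung mRNAs the log2 differences were -0.81 for Eif2s1 (limma unadjusted p = 0.034) and -0.89 for Eif2s3x (limma unadjusted p = 0.024), each with an adjusted p of 0.392. The eIF2B subunit Eif2b4 had 30.9, 34.5 and 29.9 FPKM in A1, A6 and A12 and 32.6, 29.3 and 27.7 FPKM in B5, B9 and B14, and its log2 fold change of 0.086 ± 0.20 turned to -0.091 with equal FPKM sums.

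The 4 eIF2 alpha kinases all had lower means with digitoxin, none passed the test, and their median log2 fold change was -0.31. Eif2ak1, the heme-regulated kinase, had 21.2, 10.6 and 35.98 FPKM in A1, A6 and A12 and 22.2, 33.8 and 32.9 FPKM in B5, B9 and B14. B9, A12 and B14 were close and A6 was lowest, and the log2 fold change was -0.51 ± 0.46. Eif2ak2, the kinase PKR that double-stranded RNA activates, had 13.4, 14.1 and 11.03 FPKM in A1, A6 and A12 and 16.9, 21.2 and 13.7 FPKM in B5, B9 and B14. It was lower in the digitoxin tumor of every replicate number, as were 20.0% of the members and 22.4% of all rows. Its groups overlapped, with A6 above B14, and its log2 fold change was -0.38 ± 0.27. Eif2ak3, the kinase PERK of the endoplasmic reticulum, had 10.99, 7.78 and 10.6 FPKM in A1, A6 and A12 and 10.9, 12.2 and 11.5 FPKM in B5, B9 and B14, and its log2 fold change was -0.23 ± 0.27. Eif2ak4, the amino acid sensor GCN2, had 8.11, 9.32 and 5.78 FPKM in A1, A6 and A12 and 7.15, 10.3 and 6.45 FPKM in B5, B9 and B14. Its log2 fold change was -0.034 ± 0.33, and the sign turned under median-of-ratios scaling (0.14), without B9 (0.14), without A12 (0.14) and without A12 and B14 (0.018). The list of mRNAs that ATF4 induces downstream of these kinases also holds Atf4 itself and Ppp1r15b, which are not such targets. Its median log2 fold change was -0.22 over 17 tested of 19, with 12 lower and 5 higher. None passed an adjusted or unadjusted p of 0.05 in limma's test. The largest in size was Phgdh, an enzyme of serine synthesis, at -0.93 ± 0.86.

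Factors of scanning and subunit joining held 8 tested members, of which 5 had a lower and 3 a higher mean with digitoxin, with a median log2 fold change of -0.09. eIF1 and eIF1A open the small subunit for scanning, and their mRNAs went in opposite directions across tumors. Eif1 had 279, 329 and 209 FPKM in A1, A6 and A12 and 262, 240.5 and 205 FPKM in B5, B9 and B14, with A6 highest and A12 and B14 lowest. Eif1ax, which encodes eIF1A, had 53.3, 17.5 and 107 FPKM in A1, A6 and A12 and 76.2, 65.6 and 118 FPKM in B5, B9 and B14, with A6 lowest and A12 and B14 highest. The log2 fold changes were 0.19 ± 0.25 for Eif1 and -0.83 ± 0.65 for Eif1ax, the latter from -1.42 without A12 to -0.15 without A6. The row Eif1a ran parallel to Eif1ax, from 16.4 FPKM in A6 to 101 FPKM in B14, and reads shared between these near-identical mRNAs cannot be told apart here. Eif6, which keeps the large subunit from joining too early, had 156, 194 and 212 FPKM in A1, A6 and A12 and 172, 168 and 182 FPKM in B5, B9 and B14. It varied little, and its log2 fold change of 0.095 ± 0.20 turned to -0.088 with equal FPKM sums and was at -0.00026 without A12.

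**Figure D3:**
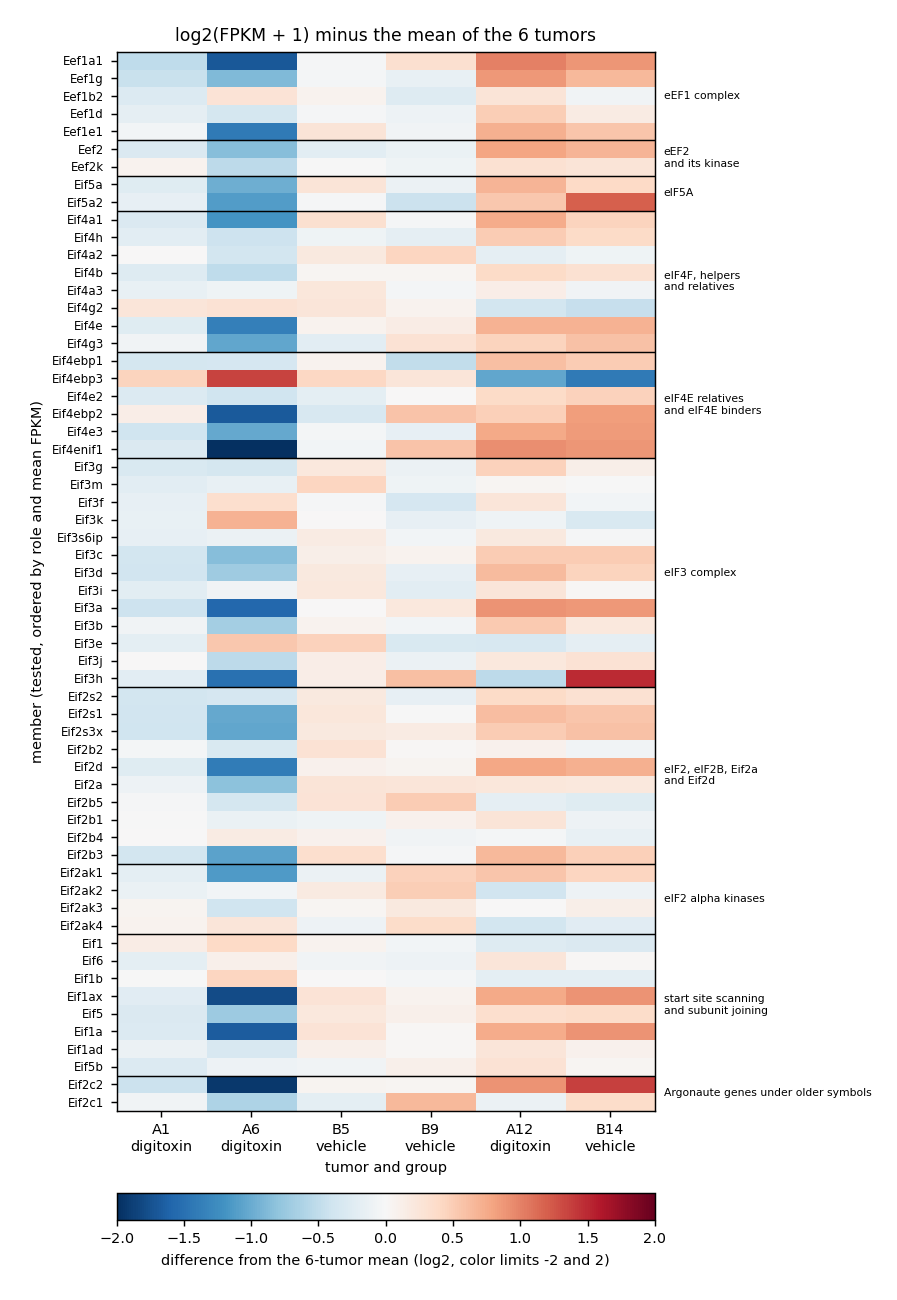
Log2(FPKM + 1) of each tested member minus its mean over the 6 tumors (color, limits -2 and 2), with members in rows by role and tumors in columns, tumors with lung mRNAs (A1, A6, B5 and B9) on the left and A12 and B14 on the right. Most rows are blue in A6 and red in A12 and B14, and Eif4ebp3, Eif4g2, Eif1, Eif1b and Eif2ak4 show the reverse in A12 and B14.

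Over the 6 tumors many members shared an order that ran across the groups. In 31 of 60 members (51.7%) A12 and B14 were both above the other 4 tumors, which held for 30.1% of all rows. The reverse held for 5 members (8.33%), Eif1, Eif1b, Eif2ak4, Eif4ebp3 and Eif4g2, and for 29.3% of all rows. A6 was the lowest tumor for 41 members (68.3%) and 50.5% of all rows, and the highest for 9 members (15.0%) and 23.9% of all rows. The median member was 2.12 times as high in its highest as in its lowest tumor. A12 was treated and B14 was not.

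Marker sums of cell division and of several cell types also differed between these tumors. The 12 cell division markers summed to 409, 81.7 and 816 FPKM in A1, A6 and A12 and to 538, 567 and 728 FPKM in B5, B9 and B14, so A6 was lowest and A12 and B14 were highest. Mki67, the proliferation marker, was at 1.69 FPKM in A6 and between 17.9 and 33.3 FPKM in the other 5. The 9 leukocyte markers, all above 1 FPKM in every tumor, summed to 24450, 62808 and 1452 FPKM in A1, A6 and A12 and to 32999, 11278 and 3592 FPKM in B5, B9 and B14, mostly as S100a8 and S100a9. The 6 fibroblast markers summed to 834, 214 and 2778 FPKM in A1, A6 and A12 and to 272, 291 and 3927 FPKM in B5, B9 and B14, with Col1a2 listed at 0 in every tumor. The 5 epithelial markers summed to 3065, 1408 and 4817 FPKM in A1, A6 and A12 and to 4054, 2807 and 3807 FPKM in B5, B9 and B14, lowest in A6 and highest in A12. The 6 endothelial markers summed to 532, 1162 and 55.3 FPKM in A1, A6 and A12 and to 225, 425 and 67.3 FPKM in B5, B9 and B14. Most markers of lung and endothelium ran the other way, with 10 of 11 lung alveolar and 5 of 6 endothelial markers lower in A12 and B14 than in any other tumor, and 7 and 5 of them highest in A6. Leukocyte markers were mixed, with 5 of 9 lower in A12 and B14 than in the rest, 4 highest in A6 and Cybb lowest there. Without S100a8 and S100a9 the other 7 summed to 455, 447 and 181 FPKM in A1, A6 and A12 and to 443, 403 and 329 FPKM in B5, B9 and B14. The part of these cells in the levels of the translation factors was not tested.

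Digitoxin was therefore also compared with vehicle among the 4 tumors with lung mRNAs, A1 and A6 against B5 and B9. No member passed an adjusted p of 0.05 in limma's test (0.0186% of all rows did), and 7 members (11.7%) had an unadjusted p under 0.05, against 11.0% of all rows. The 7 were Eef1a1, Eif2s1, Eif2s3x, Eif3a, Eif3c, Eif4a1 and Eif5, each with a lower mean in the digitoxin tumors. The mean was lower for 49 of 60 members (81.7%) and 64.6% of all rows, with median log2 differences of -0.41 and -0.24. The markers differed in the same tumors, since A6 held the least cell division mRNA and the most lung mRNA. Sums of alveolar and endothelial markers were higher, and that of cell division lower, in A1 and A6 than in B5 and B9. Club and ciliated airway markers summed to 55461 and 130859 FPKM in A1 and A6 and to 20920 and 22875 FPKM in B5 and B9. Leukocyte, fibroblast and epithelial sums overlapped between these groups.

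Between the 2 tumors without lung mRNAs the members were mostly close, and there is no replicate check. A12 was lower than B14 for 19 of 60 members (31.7%) and 51.3% of all rows, and the median log2 difference was 0.07 over the members and -0.01 over all rows. The sign of most members thus differed from that in the other 4 tumors, with 33 members (55.0%) lower in the 4 tumors and higher in A12 than in B14, against 30.4% of all rows, and 16 (26.7%) lower in both, against 33.9% of all rows. After Eif3h, at -2.02, the next on the low side was Eif5a2 at -0.65, and the highest was Eif4ebp3 at 0.37.

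**Figure D4:**
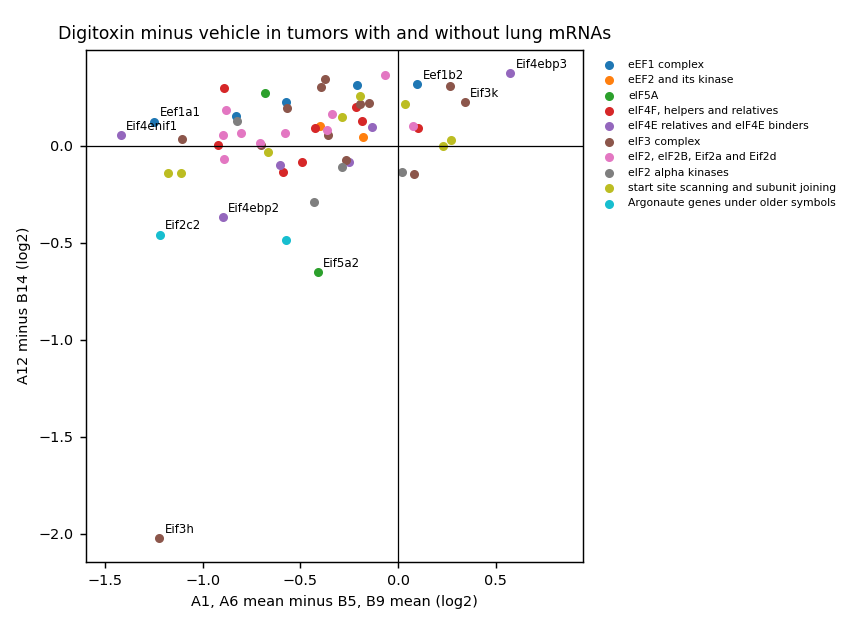
Log2 difference of A1 and A6 against B5 and B9 (x axis, mean of 2 tumors each) and of A12 against B14 (y axis, 1 tumor each) for the 60 tested members, colored by role. Of the 60 points 33 lie left of 0 and above 0 and 16 lie below 0 on both axes, where Eif3h has the lowest y value at -2.02, and the 2 axes share no tumor.

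Lower levels in each of the 3 digitoxin tumors than in the vehicle tumor of the same replicate number were found for 12 members (20.0%) and 22.4% of all rows, and higher levels in each for 2 members (3.33%) and 9.68% of all rows. With the replicate number as a block, 1 member (Eif3h) had an unadjusted p under 0.05 (limma, 4.15% of all rows) and none an adjusted p under 0.05 (0% of all rows).

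Other lists of the translation machinery were set beside the members. The list of cytosolic aminoacyl tRNA synthetases, which charge tRNAs, also holds Aimp1 and Aimp2, which are not synthetases. Of its 22 mRNAs, 21 were lowest in A6 (50.5% of all rows) and 18 were higher in both A12 and B14 than in the other 4 tumors (30.1%). Lower means with digitoxin were found for 21 of the 22 (64.9% of all rows), at a median log2 fold change of -0.27. Dars, the aspartyl enzyme, had 51.4, 9.80 and 164 FPKM in A1, A6 and A12 and 98.3, 93.6 and 175 FPKM in B5, B9 and B14, a log2 fold change of -1.38 ± 0.96. Poly(A) binding proteins and partners had a median of -0.50 over 5 tested. Pabpc1, which bridges the mRNA tail to eIF4G, had 497, 178 and 1260 FPKM in A1, A6 and A12 and 660.3, 654 and 1228 FPKM in B5, B9 and B14. Of cytosolic ribosomal proteins 34 of 71 had a lower and 37 a higher mean with digitoxin, 18 were lowest and 21 highest in A6, and the median was 0.0051, with the limit that this family has many near-identical copies. Rps4y2, the ribosomal mRNA with the largest log2 fold change in size, had a log2 fold change of 1.03 ± 0.77.

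Signaling to translation showed no call either. Of 14 tested mRNAs of mTORC1, S6K and MNK signaling 11 had a lower mean with digitoxin, at a median log2 fold change of -0.13, and the largest was Rps6ka3, a kinase of the RSK family, at -0.98 ± 0.55. Termination and recycling factors had a median of -0.34 over 5 tested, with Abce1, which splits ribosomes, at -0.83 ± 0.63. Mitochondrial translation factors had a median of -0.15 over 7 tested, with Gfm2 at -0.58 ± 0.48. Enzymes of eIF5A hypusination and eEF2 diphthamide had a median of -0.0080 over 6 tested, with Dph1 at -0.51 ± 0.49. Subunits of the sodium and potassium pump, the target of digitoxin, had a median of -0.012 over 7 tested. The 9 members known as 5′ TOP mRNAs had a median of -0.23, from -1.49 for Eif3h to 0.28 for Eif3f. No mRNA of these lists other than Eif3h had an unadjusted p under 0.05, and each adjusted p in limma's test was at least 0.926. With the replicate number as a block, Rps6ka3 (limma unadjusted p = 0.040), Abce1 (0.042) and Dars (0.042) were also under 0.05, each with an adjusted p of 0.638. The values of all these lists are descriptions beside the median of all rows, -0.16. These medians moved with scaling and with single tumors. Without A6 the median was -0.033 for the poly(A) binding list, -0.031 for the list of tRNA synthetases with Aimp1 and Aimp2, and -0.040 for eIF4F with its helpers. Without A12 it was -0.83, -0.58 and -0.43. Under median-of-ratios scaling the medians turned above 0 for eIF3 (0.033), scanning and joining factors (0.051), eEF2 and its kinase (0.025), signaling (0.057), mitochondrial factors (0.035), hypusination and diphthamide enzymes (0.17) and the pump (0.19), and with equal FPKM sums that of the ribosomal proteins turned to -0.18. Without A6 the medians of eEF1 (0.076), eEF2 and its kinase (0.13), the ATF4 list (0.011), termination and recycling (0.016), hypusination and diphthamide enzymes (0.075), the 5′ TOP members (0.056) and the pump (0.062) were above 0. Without B14 those of eEF2 and its kinase (0.026), the ATF4 list (0.15), hypusination and diphthamide enzymes (0.015) and the pump (0.084) were above 0. The median of the ribosomal proteins was below 0 with any tumor but A1 and B5 left out, at its lowest -0.13 without B9. Without a filter on low values the median of termination and recycling factors was 0.068, and without B9 that of hypusination and diphthamide enzymes was 0.0038.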

How the data were processed

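Per the labels and the study's methods, 1 TruSeq library was made per tumor and sequenced as single reads, which the authors aligned with Bowtie 2 and TopHat 2 and quantified with Cufflinks. The authors deposited FPKM with 1 column per tumor, and all columns were matched to a sample (0 were not). The table has 17557 rows. The labels also name CASAVA, FastQC and Cuffdiff. Cuffdiff needs reads and was not repeated, and depth is unknown. How the authors scaled tumors to each other is not given in the sources used here.

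Groups came from the labels. Digitoxin was compared with vehicle by limma 3.58.1 (R 4.3.3, lmFit and eBayes with a trend, two-sided) on log2(FPKM + 1), using the 10749 rows that averaged 1 FPKM or more, with Benjamini-Hochberg adjustment over all of them, and the fit was tested on simulated data. Fold changes on this scale understate those of low mRNAs. Eif2c3, Eif2c4 and Eef1a2 did not pass the minimum. Tables used Python 3.11.15, pandas 2.3.3 and numpy 2.4.6, and figures matplotlib 3.10.9. The members, lists, markers and rules were chosen with earlier results of these data known, so members are described by counts and medians beside all rows, with no test of a list.

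Named with values were members with an unadjusted p under 0.05 or with separate groups, in each role the 2 most abundant and those with the highest and lowest log2 fold change, all eIF2 alpha kinases, 4E-binding proteins and Eef2k, and in each other list the mRNA with the largest change. Members named beyond this were picked after their values were seen. A few items that the rule or lists would name are not reported here. RefSeq (GRCr8) gave current symbols for all 63 members, 6 of them renamed, pseudogenes, neighbours (5 on each side) and promoter sequences for 56. A pseudogene was counted by its RefSeq symbol.

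The replicate numbers were checked for pairing. Deviations from the group means correlated over the rows with r of 0.426 between A1 and B5, 0.606 between A6 and B9 and 0.869 between A12 and B14, and A1 with B9 (0.644) and A6 with B5 (0.612) were as close. No source names a day or batch behind a number, and p-values measure the spread between these tumors. Alternatives were a pseudocount of 0.1, no filter, a minimum mean of 5 FPKM, 2 other scalings, no trend, the replicate block, the mean over repeated rows, each tumor left out, and A12 and B14 left out. Leaving out the Argonaute rows or Eif3e and Eif3h was chosen after seeing the data.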

Additional observations from a re-analysis of the deposited data

How the results depend on the processing

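No member passed an adjusted p of 0.05 in limma's test under any of the alternatives run, leaving out A12 and B14 together included, and the smallest adjusted p of a member ran from 0.252 without A12 to 1.00 without A1, A6 or B14. With the replicate number as a block, 0 members were called and 1 had an unadjusted p under 0.05, as without it, so the block changed no call of a member, while it took all rows under 0.05 from 36 to 446. Members with an unadjusted p under 0.05 numbered 1 as reported, 7 without A12 and B14, 0 without Eif3e and Eif3h, and 0 to 16 with 1 tumor left out. The 16 came without A12, where 19.7% of all rows were under 0.05, and the 0 without A6, B9 or B14. Members whose groups did not overlap numbered 1 as reported, 40 without A12 and B14 (57.2% of all rows), 4 with equal FPKM sums (6.67%, against 3.81% of all rows), 2 with median-of-ratios scaling (3.33%, against 4.56%), 0 without Eif3e and Eif3h, and 1 to 36 with 1 tumor left out, the highest without A12 (51.0% of all rows). The cause of these shifts was not tested. The members' median log2 fold change stayed below 0, from -0.45 without A12 to -0.04 without A6, and equal FPKM sums lowered the median of all rows by 0.17.

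Of the 60 tested members 34 kept their sign under every alternative run, among them 17 of the 30 that the naming rule gave. Of the members named beyond the rule with a fold change, Eef1d (-0.29 to 0.16), Eef1e1 (-0.98 to 0.080) and Eif3e (-0.26 to 0.24) changed sign, and Eif2a, Eif2c1, Eif2c2, Eif2d, Eif3a, Eif3f, Eif4e2 and Eif4e3 did not. Median-of-ratios scaling turned Eef2k (0.086), Eif2ak4 (0.14), Eif3g (0.061), Eif4ebp1 (0.14) and Eif4h (0.12). Equal FPKM sums turned Eef1b2 (-0.012), Eif2b4 (-0.091), Eif4g2 (-0.081) and Eif6 (-0.088), and leaving out A12 and B14 turned Eif2ak4 (0.018). Leaving out 1 tumor at a time gave log2 fold changes of -0.82 to 0.056 for Eef1g, -0.68 to 0.13 for Eef2, -0.28 to 0.13 for Eef2k, -0.16 to 0.14 for Eif2ak4, -0.40 to 0.0061 for Eif3g, -0.37 to 0.18 for Eif4ebp1, -0.073 to 1.16 for Eif4ebp3, -0.11 to 0.31 for Eif4g2, -0.35 to 0.11 for Eif4h, -0.79 to 0.033 for Eif5a and -0.00026 to 0.22 for Eif6. Without depth per tumor, no counting error can be set beside the low members, such as Eif5b or Eif5a2.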

Other observations

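The 4 Argonaute rows under older symbols belong to genes that load small RNAs and silence mRNAs. Eif2c2, now Ago2, the Argonaute that cleaves its targets, had 3.03, 0.428 and 9.13 FPKM in A1, A6 and A12 and 4.63, 4.56 and 12.9 FPKM in B5, B9 and B14. It was 30.2 times as high in B14 as in A6, and A12 and B14 were above the other 4 tumors. The log2 fold change was -0.97 ± 0.79 (limma, adjusted p = 0.926). Eif2c1, now Ago1, had 1.54, 0.738 and 1.46 FPKM in A1, A6 and A12 and 1.33, 3.21 and 2.44 FPKM in B5, B9 and B14, with a log2 fold change of -0.55 ± 0.38. Eif2c3 and Eif2c4 did not reach a mean of 1 FPKM, with values from 0.339 FPKM in A6 to 1.36 FPKM in B9 for Eif2c3 and from 0.169 FPKM in A12 to 1.05 FPKM in B9 for Eif2c4. Without the 4 rows, 47 of 58 members had a lower mean with digitoxin and the median log2 fold change was -0.23, chosen after seeing the data.

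Eif3e, whose row lies on another chromosome than its RefSeq neighbours, had 25.1, 42.4 and 23.0 FPKM in A1, A6 and A12 and 40.4, 23.3 and 25.5 FPKM in B5, B9 and B14, with a log2 fold change of 0.01 ± 0.34. Eif3c and Eif3d, the next subunits of the complex, were highest in A12 and lowest in A6, with Eif3c at 106, 75.1 and 194 FPKM in A1, A6 and A12 and 148, 143 and 194 FPKM in B5, B9 and B14.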
